A study of Mus musculus with 2 samples.

Results

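The ectoplacental cone trophoblast nuclei of E7.0 mouse embryos were chosen by a score on their nuclear RNA. Droplet barcodes entered with 3000 to 30000 RNA molecules (UMIs, reads collapsed to single molecules) and at least 2000 accessibility peak counts, which kept 11605 of 15341 barcodes. The score was the mean of ln(1 + UMIs per 10000) over 8 genes (Ascl2, Gjb5, Plac1, Vgll1, Olr1, Irx2, Gab2 and Ldoc1) minus the mean over 3 genes of the neighbouring extraembryonic ectoderm (Esrrb, Duox2 and Sox21). The 300 highest nuclei were the members, and the other 11305 nuclei in the depth range were the comparison. The members are therefore a range of a score and not a cell type, and their RNA levels are a description of what the rule selected. Scores of the members ran from 1.59 to 0.2653, and the next nucleus scored 0.2646. Of the members, 69 lay within 0.05 of that last score, as did 116 non-members. The median score of the others was 0.

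The study pooled mouse embryos staged at E7.0, dissociated them and measured nuclear RNA and chromatin accessibility together in each isolated nucleus (a single-nucleus multiome of 10x Genomics). There was 1 group of embryos and 2 libraries, 1 per assay, and the labels named no treatment and no control. The label entries conflicted: title, age and protocol gave E7.0 embryos, whereas source, tissue, cell type and strain gave the 8th section of the small intestine, the distal colon, goblet cells and the strain RedMUC298trTg. The genotype of the embryos is therefore not certain, and the number of embryos and the embryo of each barcode were not given. Both assays shared all barcodes. With 1 library per assay no difference below has a replicate check or a test. Ranges in brackets are exact 95% intervals that cover counting error only, and "higher" or "lower" for a gene count means past a fold of 2. Levels are summed counts of a group per 1000000 of its UMIs or of its peak counts (CPM and peak CPM). The 8 goblet and intestinal genes summed to 16.7 CPM in the members and 29.5 CPM in the others, of which Vil1, also made in endoderm, gave 12.5 and 26.8 CPM.

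The ectoplacental cone is the cap of trophoblast at the pole of the early mouse conceptus that faces the uterine lining. It grows from the extraembryonic ectoderm beneath it, and its cells are the source of spongiotrophoblast, glycogen cells and several kinds of trophoblast giant cell, which invade maternal tissue and make placental hormones. Ascl2, an imprinted basic helix-loop-helix factor, is needed for spongiotrophoblast, and AP-2 gamma (Tfap2c), Gata2 and the simple-epithelium keratins mark the trophoblast lineage as a whole.

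The highest-ranked members carried the programme of the score densely and the lowest-ranked thinly. At least 3 of the 8 positive genes had a UMI in 232 of the 300 members and in 196 of the 11305 others (1.73%). Members are split below by score into the top, middle and lowest 100, followed by the 100 nuclei just outside the cutoff and by the far ranks, all past 600. At least 3 genes held for all of the top 100, for 87 of the middle 100 and for 45 of the lowest 100. At least 5 of the 8 were seen in 93, 27 and 2 nuclei of these bins, against 3 nuclei among all others, and all 8 in 8 members. Of the members, 288 had no UMI of the 3 subtracted genes. Median depth was close for RNA, at 11782 UMIs in members and 11346 in others, and lower in members for accessibility, at 15255 against 19583 peak counts. Within the members the median fell with rank, from 13087 to 11784 and 10184 UMIs. A doublet caller marked 22 members (7.33%) and 701 others (6.20%), and mitochondrial genes took 0.112% and 0.0934% of the UMIs.

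Each positive gene can be set beside its level in the other nuclei, with the reminder that it helped to choose the members. Plac1, an X-linked placental gene, stood at 361 CPM in the members and 10.7 in the others, with a UMI in 72.0% and 8.79% of nuclei. Gab2, a docking adaptor of receptor tyrosine kinases, stood at 328 and 10.9 CPM and was seen in 61.0% and 8.77% of nuclei. Gjb5, a gap junction connexin, stood at 189 and 14.97 CPM and was seen in 73.7% and 12.1%. For Ascl2 the levels were 161 and 3.97 CPM and the shares 65.0% and 4.19%. Irx2, an Iroquois homeobox factor, had 104 and 5.50 CPM in 57.3% and 5.78% of nuclei. Ldoc1, an X-linked gene derived from a retrotransposon, had 116 and 4.50 CPM in 52.7% and 5.14%. Vgll1, a partner of TEAD factors, and Olr1, a scavenger receptor for oxidised lipoprotein, were sparse, with 85 and 82 UMIs over all members against 37 and 13 over all others. After every nucleus was thinned to 3000 UMIs, Gjb5 was seen in 42.3% of members and 3.70% of others, Ascl2 in 31.3% and 1.16%, and Vgll1 in 6.33% and 0.0442%. No single member held over 7.32% of a positive gene's UMIs. On mm10 the first listed starts lay at position 142968717 of chromosome 7 for Ascl2 (ENSMUSG00000009248), 97081586 of chromosome 7 for Gab2, 127358181 of chromosome 4 for Gjb5 (ENSMUSG00000042357), 72628820 of chromosome 13 for Irx2 and 129507107 of chromosome 6 for Olr1. Plac1, Vgll1 and Ldoc1 lay on the X chromosome, at 53114530, 57088106 and 61709497.

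The 8 genes did not fall away evenly with rank. Olr1 was almost confined to the top, at 55.8 CPM in the top 100 members, 0.79 in the middle 100 and 0 in the lowest 100. Gab2 went from 681 to 130 and 94.6 CPM over the same bins, and Ascl2 from 229 to 167 and 65.1. When the members were chosen again without the gene in question, its fold over the other nuclei was 29.9 for Ascl2 (40.5 with it), 10.0 for Gjb5 (12.6), 20.7 for Plac1 (33.7), 15.8 for Irx2 (18.8), 24.3 for Gab2 (30.2) and 22.7 for Ldoc1 (25.8). Of the members, 241 to 278 were the same in these choices, and the 8 genes were picked together with earlier results of these data known. The folds of these 6 genes are therefore a description and not independent support.

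Accessibility had no part in the score, although the depth range asked for a minimum of peak counts, and the members chosen on RNA lay near each other in it. Among the 30 nearest nuclei by accessibility, 55.8% on average were members for a member and 1.23% for another nucleus, where members made up 2.59% of the nuclei. The means by rank were 92.1% for the top 100, 59.0% for the middle 100, 16.4% for the lowest 100 and 9.90% for the 100 nuclei just outside the cutoff. Over the 300 members, 163 had more than 50% members among their neighbours, 137 had 50% or fewer and 35 of these had none, against 22 of the 11305 others with more than 50%. The 163 and the 137 differed in depth, at medians of 12819 and 10429 UMIs and of 15986 and 14125 peak counts.

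**Figure D1:**
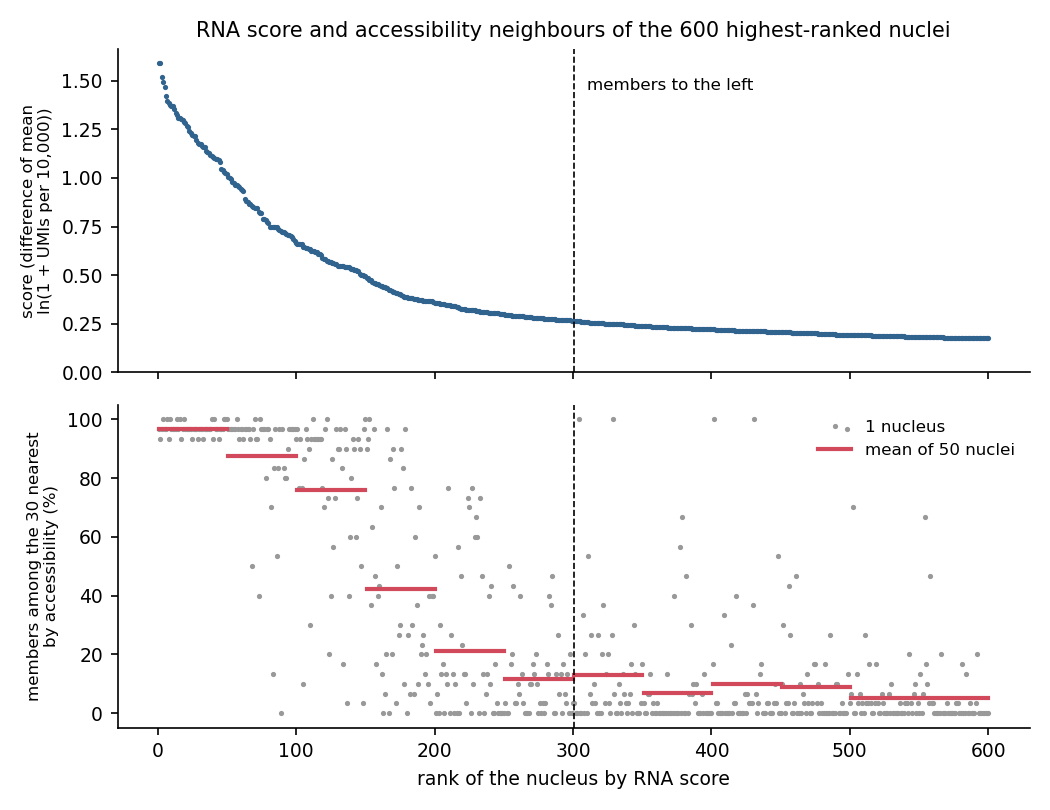
RNA score (upper panel) and percent of members among the 30 nearest nuclei by accessibility (lower panel) of the 600 nuclei with the highest scores. Each dot is 1 nucleus, red lines are means of 50 nuclei and the dashed line marks the last member; the score falls smoothly through that line, while the neighbour share averages 92.1% over the top 100 members and 16.4% over the lowest 100.

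The 163 and 137 members also differed in RNA that the rule did not use. Tfap2c, a defining trophoblast factor, stood at 709 CPM in the 163 and 142 CPM in the 137, and the 23 general trophoblast genes summed to 3933 and 1923 CPM. The 11 visceral endoderm genes summed the other way, to 1060 and 3252 CPM, and to 5122 CPM in the 35 members with no member neighbour. Their medians over nuclei were closer, at 9.74, 11.1 and 17.0 UMIs per 10000, so the gap in the sums rested largely on few nuclei. Cubn, an endocytic receptor of visceral endoderm, stood at 114, 1095 and 1799 CPM in these groups, against 1473 CPM in the other nuclei with 50% or fewer member neighbours, but the shares of nuclei with a Cubn UMI were 68.7%, 64.2% and 57.1%. By Tfap2c and the general trophoblast genes the label held best for the higher ranks. Visceral endoderm RNA summed to 3983 CPM in the lowest 100 members and 4016 CPM in the far ranks, with medians over nuclei of 8.52, 10.9 and 11.1 UMIs per 10000 in the top, middle and lowest 100. None of the 11 visceral endoderm genes was at 0 in the members, and their part in the results for the lowest 100 was not tested.

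The 22 other nuclei that lay mostly among members by accessibility had trophoblast RNA although their score missed the cutoff. Their median score was 0.177. General trophoblast genes summed to 2439 CPM, Tfap2c stood at 273 CPM and the giant cell genes summed to 1887 CPM, against 994, 28.1 and 198 CPM in the remaining others. The giant cell sum rested on few of the 22, whose median was 2.45 UMIs of these genes per 10000. The 22 also held red blood cell RNA at 980 CPM, with a median of 0, against 5.02 CPM in the remaining others, and 3 of them (13.6%) were called doublets. The part of these in the 22 nuclei's values was not tested.

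A ranking by accessibility alone gave a weaker view of the same nuclei. The 131 peaks within 50000 bp of a start of the 8 genes held a median of 8.51 counts per 10000 peak counts in members and 4.60 in others. Of the 300 nuclei highest by that sum, 55 were members (18.3%, 14.1 to 23.2), where 2.59% of all nuclei in range were. Of these, 33 were of the top 100, 15 of the middle 100 and 7 of the lowest 100.

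At the promoters (from 1000 bp before a start to 100 bp past it), the 7 positive genes with a promoter peak were together 1.87-fold more accessible in the members (1.700 to 2.05), at 167 against 89.5 peak CPM. A fold of 2 was passed by 5 of the 7, where 2.60% of the 20774 promoters measured passed it upward and 12.7% downward, and where the median promoter fold was 1.05. Vgll1 differed most, at 9.63 and 1.17 peak CPM, a fold of 8.25 (5.21 to 12.6) on 52 counts in members. The Gjb5 promoter had a fold of 2.89 (2.15 to 3.82), Plac1 2.57 (1.74 to 3.67), Ldoc1 2.48 (1.76 to 3.42) and Ascl2 2.03 (1.47 to 2.73). Next to that promoter, 2 peaks at 559 and 1115 bp from an Ascl2 start were less accessible, at 0.595 (0.367 to 0.913) and 0.525 (0.293 to 0.869). Gab2 was just short of the line, at 1.99 (1.65 to 2.39). The Irx2 promoter was open in both groups, at 56.9 and 43.5 peak CPM, a fold of 1.31 (1.11 to 1.53) beside an RNA fold of 18.8. Olr1 had no promoter peak. Summed over the 7 genes, promoters went from 217 peak CPM in the top 100 members to 160, 113 and 99.9 in the next 3 bins of 100 nuclei and 89.4 in the far ranks.

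The promoters of Ascl2, Gjb5 and Krt7 are shown as examples, chosen after their values were seen. The 250 bases before their RefSeq start lay wholly inside a peak that was more accessible in the members. So did the Ldoc1 window (promoter fold 2.48) and 1 of 2 Plac1 windows, which are not shown. The peak of that Plac1 window had a fold of 1.97 (1.06 to 3.35), and the Plac1 promoter fold of 2.57 sums 2 peaks. The other Plac1 window and that of Vgll1 held 0 bases of a promoter peak of their gene. Krt7, a trophoblast keratin outside the score, had the highest promoter fold of the general trophoblast genes. Sequences are from RefSeq (build GRCm38.p6), 5′ to 3′ on the gene's strand, ending at the base before the start. Capitals mark matches, on either strand, to 1 of 7 motifs searched. These were GCCNNNGGC for AP-2 factors, CATTCC for the TEAD family, AGATAA for zinc fingers of the Gata family, TGANTCA for the leucine zippers of AP-1, CCGGAA for factors of the Ets family, CAGCTG for the E-box of helix-loop-helix factors and CCCGCCC for Kruppel-like zinc fingers (KLF). A match is a run of letters, not a site of binding.

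Krt7 (chr15:101412153-101412402, plus strand; promoter fold 4.47): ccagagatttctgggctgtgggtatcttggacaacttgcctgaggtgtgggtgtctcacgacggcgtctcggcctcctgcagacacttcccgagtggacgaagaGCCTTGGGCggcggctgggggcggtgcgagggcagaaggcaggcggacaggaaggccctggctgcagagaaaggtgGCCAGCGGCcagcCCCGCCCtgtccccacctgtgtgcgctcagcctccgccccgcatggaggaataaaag
Gjb5 (chr4:127358165-127358414, minus strand; promoter fold 2.89): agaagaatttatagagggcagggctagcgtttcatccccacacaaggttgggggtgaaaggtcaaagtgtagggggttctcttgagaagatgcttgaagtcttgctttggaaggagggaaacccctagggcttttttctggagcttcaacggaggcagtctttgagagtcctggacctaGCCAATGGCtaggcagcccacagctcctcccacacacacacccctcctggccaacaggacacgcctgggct
Ascl2 (chr7:142969265-142969514, minus strand; promoter fold 2.03): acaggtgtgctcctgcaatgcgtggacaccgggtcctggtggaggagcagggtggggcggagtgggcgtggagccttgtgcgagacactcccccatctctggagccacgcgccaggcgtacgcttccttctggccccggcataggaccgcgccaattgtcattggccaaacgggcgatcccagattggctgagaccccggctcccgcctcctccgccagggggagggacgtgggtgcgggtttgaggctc

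The Krt7 window held 2 AP-2 matches, starting 146 and 70 bases before the start, and a KLF match at 57 bases, overlapping neither. The Gjb5 window held an AP-2 match at 71 bases, and none of the 7 motifs was in the Ascl2 window. Of 18039 RefSeq windows of this length whose gene had a measured promoter, 19.03% held the AP-2 letters, as did 15.5% of the 400 whose gene's promoter passed a fold of 2 in members. AP-1 letters were in 5.10% of the first set and 60 of the 400, TEAD letters in 11.4% and 76, E-box letters in 13.0% and 72, and KLF letters in 37.3% and 59. Gata letters were in 6.84% and 37 of the 400, and Ets letters in 17.9% and 44. Base composition was not matched between these sets.

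Peaks near the 8 genes, promoter peaks included, were counted in the same way. Of 108 peaks within 50000 bp of the 8 genes with enough counts, 28 were more accessible in the members by a fold of 2 and 23 less, where 7.30% of all 175475 measured peaks were more and 31.1% less accessible. The median fold was 1.24 near the 8 genes and 0.756 over all peaks. When folds were divided by that median, the 12807 more and 54583 less accessible peaks became 24289 and 37524, so 39.3% of the calls were upward. Among the 18955 peaks expected to hold 60 counts in members, a limit added after the data were seen, 1.02% were more and 10.8% less accessible. A peak 37664 bp from the Irx2 start (chr13:72666064-72666904) held 123 counts in members and 147 in all others, a fold of 35.8 (25.5 to 50.2), and was seen in 17.0% and 0.725% of nuclei. A peak at chrX:53111524-53112454, 2541 bp from a Plac1 start, had a fold of 14.5 (9.48 to 21.7). Near Gjb5, a peak 1926 bp from the start (chr4:127359659-127360555) held 246 and 1004 counts, a fold of 10.5 (8.59 to 12.7), and was seen in 31.0% of members and 4.31% of others. Near Ascl2, a peak 8704 bp away (chr7:142959601-142960424) had a fold of 10.4 (6.88 to 15.4), and a sparser one 21058 bp away, with 56 counts in members, a fold of 17.3 (10.9 to 26.6). Near Gab2 the highest fold among peaks with at least 60 counts in members was 5.12 (3.43 to 7.40), at chr7:97042751-97043638, 38391 bp from a start. These peaks were followed by rank: that of Irx2 went from 49.6 to 11.6 and 1.22 peak CPM over the 3 bins of members and that of Gjb5 from 57.0 to 52.7 and 23.8, against 0.634 and 4.24 in the far ranks. For Olr1, 7 of 13 measured peaks were lower and 1 higher by a fold of 2.

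**Figure D2:**
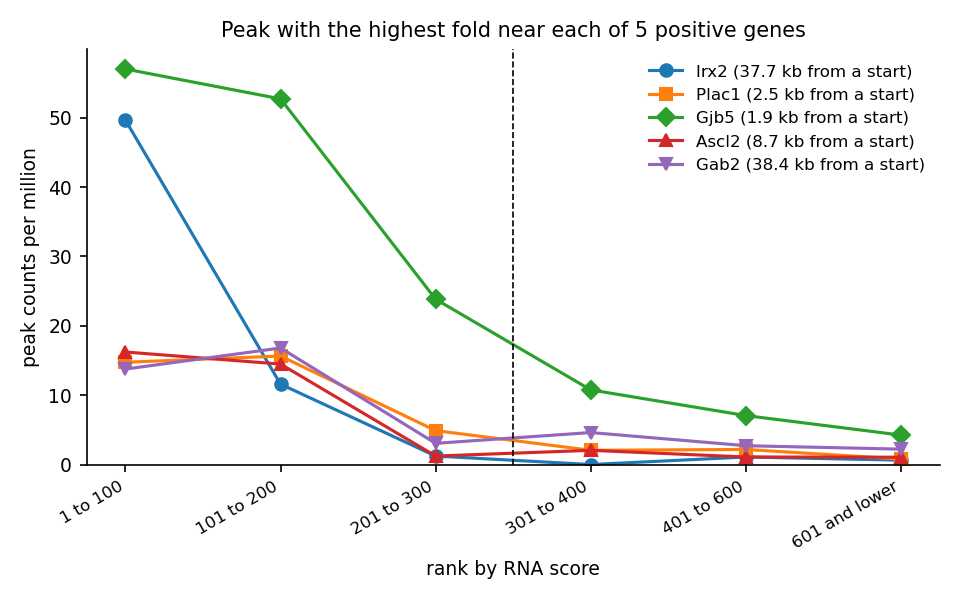
Accessibility (peak CPM) of the peak with the highest fold, among those with at least 60 counts in the members, near Irx2, Plac1, Gjb5, Ascl2 and Gab2 (its distance to a start is in the legend), by rank of the nuclei on the RNA score; the dashed line marks the last member. The Irx2 peak drops from 49.6 in the top 100 to 1.22 in the lowest 100 members, while the Gjb5 peak is still at 23.8 there. Peaks chosen in the same way near Ldoc1, Vgll1 and Olr1 had lower folds, at 2.48, 1.48 and 0.852, and are not shown.

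The peaks with the highest folds among those with at least 60 counts in the members lay mostly far from promoters. The highest (chr11:113927924-113928771) held 135 counts in members and 84 in all others, a fold of 68.8 (47.5 to 100.5), and its nearest start, of Sdk2, was 137870 bp away. All but 8 of its 135 member counts came from the top 100 members. A peak at chr15:62060059-62060881, 22409 bp from a start of the noncoding gene Pvt1, held 210 and 141 counts, a fold of 63.8 (47.4 to 86.1), and went from 74.7 to 30.7 and 3.05 peak CPM over the member bins. In the extraembryonic ectoderm-high nuclei described below these 2 peaks held 0 and 14 counts. Over all peaks more accessible by a fold of 2, 5.93% were at a promoter, compared with 12.4% of measured peaks. The less accessible peaks were close to that, at 6.42%, so a low share was not particular to the more accessible peaks. The nearest gene had RNA higher by a fold of 2 for 6.71% of the more accessible peaks, 2.67% of measured peaks and 1.58% of the less accessible peaks.

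Across all 14345 genes with at least 200 UMIs, 3.92% were higher and 15% lower in the members by a fold of 2, with a median fold of 0.960. These shares come from the contrast that chose the members and are given as background only. Among 24 further ectoplacental cone and spongiotrophoblast genes, 18 had enough UMIs, of which 13 were higher and 2 lower. The list summed to 3474 and 1127 CPM. Phlda2, an imprinted brake on placental growth, stood at 1023 and 143 CPM, and Ndrg1, a stress-response gene of trophoblast, at 203 and 17.6 CPM. Plet1, a surface protein of the trophoblast, stood at 150 and 23.7 CPM with a promoter fold of 2.80 (1.88 to 4.02). Arid3a and Ets2, regulators of trophoblast fate, had RNA folds of 6.92 and 3.38 and promoter folds of 1.35 (1.10 to 1.65) and 1.27 (1.05 to 1.52). Egfr had an RNA fold of 4.39. Lower were Flt1, a receptor for vascular endothelial growth factor, at 41.1 and 143 CPM, and Prdm1, a transcriptional repressor, at 13.8 and 39.9 CPM. The Flt1 promoter had a fold of 0.551 (0.389 to 0.758) and that of Prdm1 a fold of 1.28 (1.03 to 1.58). In all, 2 of 18 promoters of the list, that of Plet1 among them, passed a fold of 2 upward, where 2.6% of all measured promoters did. Rhox9 and Rhox6, members of a family of close copies, had RNA folds of 3.09 and 4.61, which are uncertain.

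Some markers in the further ectoplacental cone and spongiotrophoblast list were at or near 0 in the members. Tpbpa had 1 UMI in the 3842980 UMIs of the members and Tpbpb had 0, and Psg18, Psg19 and Psg21, members of a family of close copies, had 0, 1 and 0.

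The general trophoblast genes went with the score although none was in it. Of 23 genes 20 had enough UMIs, 14 were higher and none lower, beside 3.92% and 15% over all genes. The median fold was 3.18. Tfap2c stood at 478 CPM in members and 28.7 in others, and at 791, 429 and 129 CPM over the member bins. Gata2, a zinc finger factor of trophoblast, stood at 80.1 and 7.03 CPM. The keratins Krt8, Krt18 and Krt19 stood at 707, 732 and 211 CPM in members and 149, 146 and 21.1 CPM in others. Krt7 stood at 67.1 and 7.97 CPM, and its promoter was 4.47-fold more accessible (3.45 to 5.72), beside 2.15 (1.78 to 2.57) for Krt8, 1.89 (1.55 to 2.28) for Krt18 and 1.99 (1.65 to 2.38) for Krt19. The nuclear receptors Ppard and Pparg had RNA folds of 8.60 and 14.6 with promoter folds of 1.02 (0.870 to 1.20) and 0.999 (0.726 to 1.34), and Gata2 an RNA fold of 11.4 with a promoter fold of 1.15 (0.973 to 1.34). Among the 23 promoters 2 passed the fold upward and 2 downward, where 2.6% and 12.7% of all measured promoters did. Tead1, Tead4, Grhl2 and Msx2 had RNA folds between 0.812 and 1.05.

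**Figure D3:**
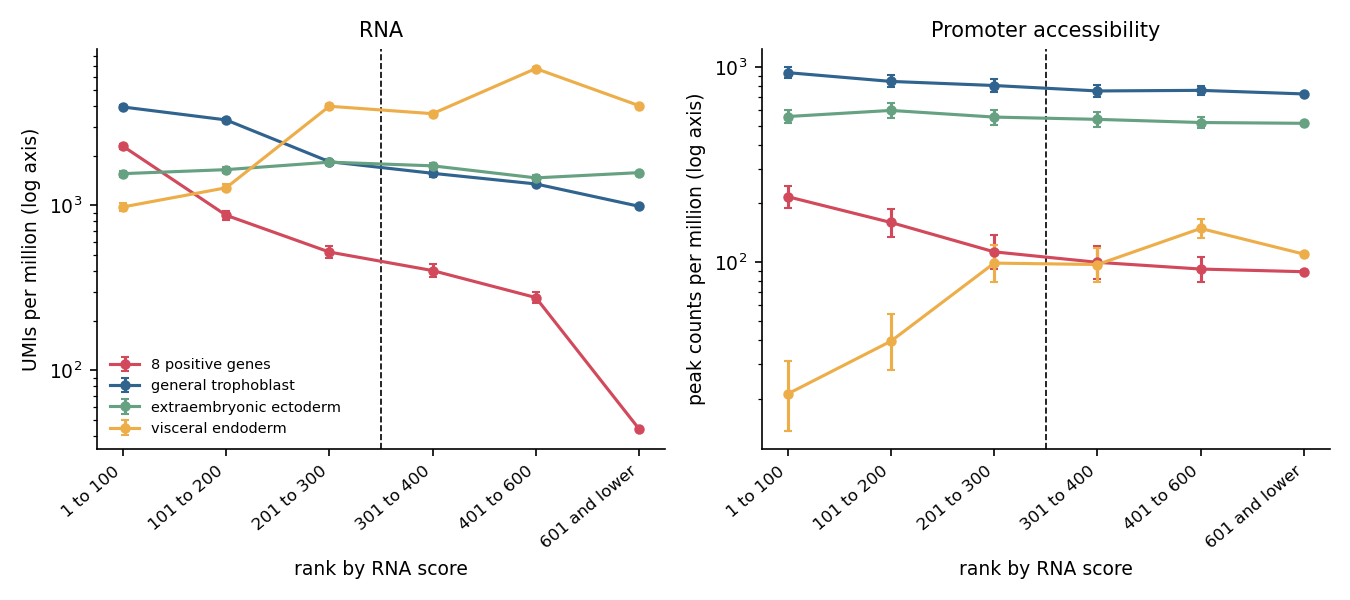
Summed RNA (left, CPM) and promoter accessibility (right, peak CPM) of 4 gene lists by rank on the RNA score, on log axes with exact 95% Poisson bars for counting error; the dashed line marks the last member. The positive genes drop from 2283 to 521 CPM and from 217 to 113 peak CPM over the member bins, while summed visceral endoderm RNA goes from 977 to 3983 CPM, with medians over nuclei of 8.52 to 11.1 UMIs per 10000.

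The extraembryonic ectoderm and trophoblast stem genes divided. Their sums were close, at 1664 and 1577 CPM, with 3 of 18 genes higher and 6 lower, beside 3.92% and 15% over all genes. Higher were Wnt7b, Tex19.1 and Elf5, an ETS factor that holds the trophoblast fate, with folds of 3.31, 3.33 and 2.22. Lower were Sox2, Sox3, Eomes and the fibroblast growth factor response genes Spry4, Etv4 and Etv5, with folds from 0.310 to 0.438. The promoters of Elf5 and Tex19.1 were 3.74-fold (2.93 to 4.71) and 3.16-fold (2.54 to 3.88) more accessible, as was that of Zfp42, at 2.29 (1.76 to 2.94), and that of Wnt7b had a fold of 0.858 (0.638 to 1.13). The 3 subtracted genes, held at 4.94 CPM by the rule, had promoters as accessible as elsewhere, at 51.3 and 51.9 peak CPM together, a fold of 0.989 (0.836 to 1.16).

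Imprinted genes of the placenta summed to 6016 CPM in members and 3963 in others. They summed to 5929 and 4712 CPM in the parietal endoderm-high and extraembryonic ectoderm-high nuclei described below. Of 27 genes 8 were higher and 3 lower, where 3.92% and 15% of all measured genes were. Ascl2, a score gene that the rule made high, is in the sum and in the 8. Beside Ascl2, Phlda2 and Cdkn1c (168 and 30.9 CPM) the higher genes were Slc22a18, Gab1, Peg10, Sfmbt2 and Igf2, with folds from 2.85 to 5.80. Peg10, a retrotransposon-derived gene needed for the placenta, stood at 538 and 186 CPM, and Sfmbt2, a Polycomb gene of trophoblast, at 1190 and 414 CPM. Lower were Meg3, Rtl1 and Dcn, at folds of 0.335, 0.340 and 0.364. Of 25 promoters only that of Ascl2 passed the fold upward and 4 passed it downward, among them Meg3 at 0.439 (0.239 to 0.739). Over all measured promoters these shares were 2.6% and 12.7%, so the promoter counts were near background.

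Junction genes were a further list, and it holds Gjb5, a score gene that the rule made high. Of 19 measured genes 8, Gjb5 among them, were higher and 4 lower, beside 3.92% and 15% over all genes. Of 20 promoters 4 passed the fold upward, beside 2.6% over all promoters. Among those 4 were Gjb5 and the tight junction claudins Cldn3, at 2.25 (1.94 to 2.60), and Cldn4, at 3.30 (2.77 to 3.90). Cldn4 RNA stood at 70.0 and 13.1 CPM. Desmoplakin (Dsp) and the hemidesmosome integrin Itgb4 had RNA folds of 4.27 and 4.58 and promoter folds of 1.24 (1.02 to 1.50) and 1.13 (0.887 to 1.43). The connexin Gja1 was lower in both, at 0.328 for RNA and 0.344 (0.233 to 0.489) for its promoter, and the cadherin Cdh2 had folds of 0.469 and 0.599 (0.464 to 0.762).

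Cell cycle genes hardly differed. Of 30 genes for the mitotic cycle and endoreduplication, in which cells copy DNA without dividing, 2 were higher, Cdkn1c at 5.44 and Ccnd3 at 2.15, and 1 lower, Ccnd1 at 0.467. The list summed to 4698 and 4303 CPM. Mki67 stood at 361 and 278 CPM. Among labyrinth and syncytiotrophoblast genes 1 of 10 was higher and 2 lower, with a median fold of 0.963, near the 3.92% and 15% over all genes. The lower ones were Glis1 and Stra6, at folds of 0.458 and 0.433. The higher one was Cebpb, a leucine zipper factor, at 159 and 15.2 CPM with a promoter fold of 2.30 (1.95 to 2.69). Its relative Cebpa had 64 UMIs in the members at 16.7 CPM, against 0.655 CPM in others. Gcm1 had 3 UMIs, and the syncytins Syna and Synb had 0.

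Lists of other tissues were mostly below their level in the rest. The 9 extraembryonic mesoderm genes were not, at 115 and 93.6 CPM, a fold of 1.23 (1.12 to 1.35). They summed to 243 CPM in the 137 members with 50% or fewer member neighbours, against 93.5 CPM in the others with such neighbours, and the median over nuclei was 0 in members and others. No gene of the epiblast, streak or visceral endoderm lists was higher, and 6 of 9, 7 of 11 and 5 of 11 were lower. Over all measured genes 3.92% were higher and 15% lower. As medians over nuclei, visceral endoderm genes stood at 10.2 UMIs per 10000 in members and 11.2 in others, epiblast genes at 7.59 and 14.8, and parietal endoderm genes at 4.48 and 6.96. Promoters of the visceral endoderm list summed to a fold of 0.458, with 7 of 11 lower, where 12.7% of all measured promoters were. They stood at 21.1, 39.4 and 99.0 peak CPM in the top, middle and lowest 100 members, against 110 in the far ranks. RNA of the lowest 100 was above the far ranks for haemato-endothelial genes, at 130 and 105 CPM, and decidua genes, at 57.1 and 49.7 CPM. Epiblast, streak and parietal endoderm genes were still lower there, at 978 and 1704, 822 and 970, and 821 and 1081 CPM. In the parietal endoderm list 6 of 11 genes were lower and Nid1, a basement membrane protein, was higher at 3.53. Gata1 was the 1 gene of 8 that was higher in the haemato-endothelial list, at 18.5 and 2.89 CPM, with a promoter fold of 2.11 (1.19 to 3.49), while Tal1, Etv2, Fli1 and Tek had folds between 0.645 and 1.06. Maternal cells left little sign: the 11 decidua genes summed to 23.7 and 50.1 CPM and the 11 immune genes to 2.86 and 2.44 CPM, with Ptprc, Lyz2, C1qa and C1qb at 0 in the members.

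Genes outside the lists were named by rule, as the 20 with the highest folds. Among them were Lgals1, a galectin, at 558 and 46.6 CPM with a promoter fold of 2.11, and Lgals3, also a galectin, with an RNA fold of 14.1. The epithelial ETS factor Elf3 stood at 130 and 13.1 CPM. Batf3 (15.7), the follistatin relative Fstl3 (14.6), the adenylyl cyclase Adcy7 (13.5), the stress kinase Mapk13 (10.8), the Notch ligand Jag2 (9.46), the lipid transfer protein Pltp (9.22), Vstm5 (9.20), Fgfbp1 (9.04, promoter fold 2.89), Gadd45g (8.66), Elf4 (8.11), Rtn1 (7.90), the epithelial splicing factor Esrp2 (7.59), Zbtb10 (7.54) and Fam83b (7.47) followed. Fthl17a, at 30.3, belongs to a family of close copies and is uncertain. Of these 20 genes 18 had a measured promoter, 14 promoters had a fold above 1, 7 had an interval above 1 and 2 passed a fold of 2, with a median of 1.26. Over all measured promoters the median fold was 1.05 and 2.6% passed a fold of 2.

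The same rule named the 10 with the lowest folds. Kcnj3, Ctnna2, Kcnc2, Nrcam, Frmd5, Shisa6, Adgrb3, Xkr4, Rbfox1 and Stxbp6 had folds from 0.121 to 0.162. Stxbp6 stood at 37.2 CPM in members and 230 in others, with a promoter fold of 0.393. In the extraembryonic ectoderm-high nuclei 8 of the 10 were lower still, among them Kcnj3 at 2.41 CPM against 12.5 in members, Adgrb3 at 2.41 against 9.89 and Rbfox1 at 6.35 against 16.7, so low levels of these genes were not particular to the members.

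Over the 13406 genes measured in both assays, RNA and promoter folds went together only in part, with a Spearman correlation of 0.447 and a Pearson correlation of log2 folds of 0.508 across genes, which are not independent and share the same nuclei and depth. Promoters of the 525 genes with RNA higher by a fold of 2 had a median fold of 1.23, and 12.0% of them passed a fold of 2, against 1.12 and 1.07% over all genes. Promoters of the 1889 lower genes had a median of 0.663, and 0.371% passed it.

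**Figure D4:**
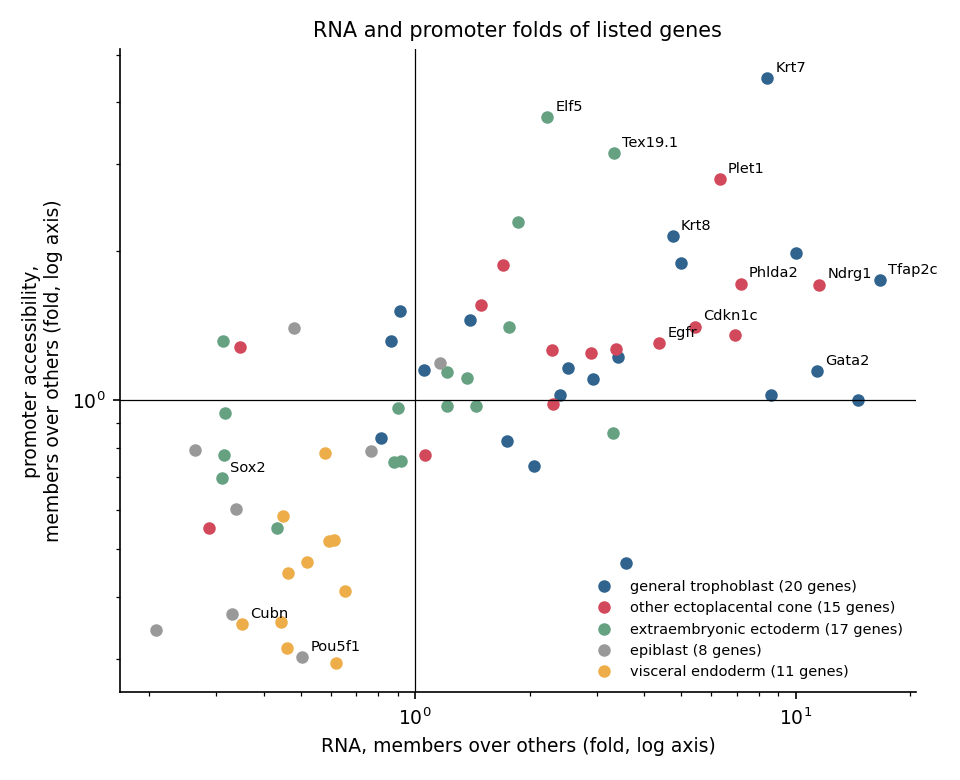
Fold of members over others for RNA (x axis) and for promoter accessibility (y axis), both on log axes, for genes of 5 lists measured in both assays; lines mark a fold of 1. Krt7, Plet1 and Elf5 are high in both, Tfap2c, Ndrg1 and Phlda2 have RNA folds from 7.17 to 16.7 with promoter folds from 1.71 to 1.75, and visceral endoderm genes lie low in both.

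A few members carried the hormone genes of trophoblast giant cells. The placental lactogen I genes Prl3d1, Prl3d2 and Prl3d3 are close copies whose counts may be split, and they are summed here. At least 3 Prl3d UMIs were found in 11 members, with 4 to 214 UMIs and a median of 69, and in 22 of the 11305 others (0.195%). At least 1 was found in 30 members (10.0%) and 552 others (4.88%). The 11 lay at ranks 95 to 216, with 1 of them in the top 100. They were deeper in RNA, at a median of 15916 UMIs against 11683 in the other 289 members, and shallower in peak counts, at 11047 against 15516, and 1 was called a doublet. Of the 11, 10 had no Ascl2 UMI, and the 1 with 6 Ascl2 UMIs had the fewest Prl3d UMIs, 4.

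**Figure D5:**
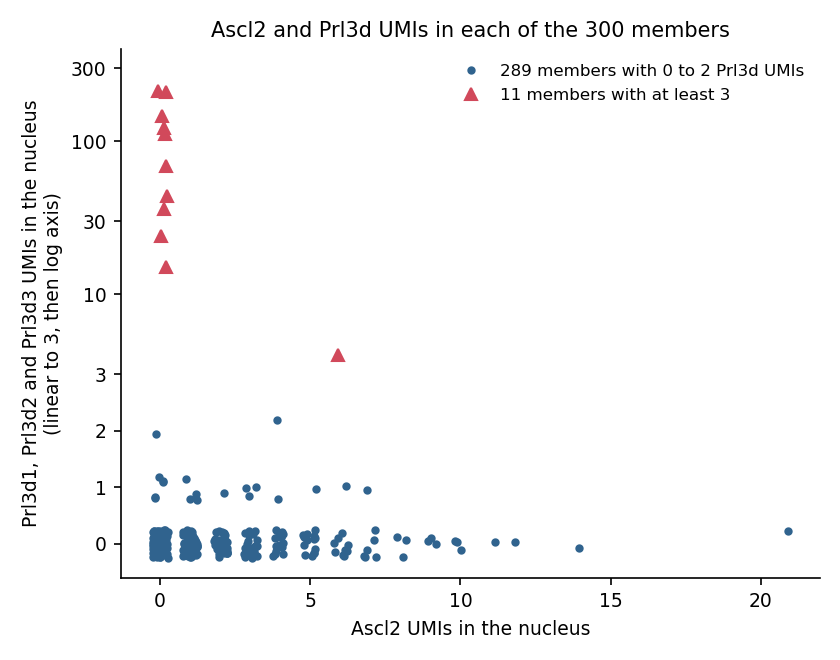
Ascl2 UMIs (x axis) and summed Prl3d1, Prl3d2 and Prl3d3 UMIs (y axis, linear to 3 and log above) of each of the 300 members, with small jitter. Of the 11 members with at least 3 Prl3d UMIs (red triangles), 10 lie at 0 Ascl2 UMIs and 1 at 6.

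The RNA of these 11 nuclei differed from that of the other 289 members in named giant cell and vessel genes. Adrenomedullin (Adm), a vasodilator peptide, had 242 of its 247 member UMIs there. VE-cadherin (Cdh5) had 87 UMIs in the 11 and 26 in the 289, Pecam1 57 and 12, the protease Mmp9 45 and 8, thrombomodulin (Thbd) 35 and 0, and Prl7a1, another prolactin relative, 91 and 2. Hand1, a basic helix-loop-helix factor needed for giant cells, stood at 461 CPM in the 11 and 74.1 CPM in the 289, and the nucleotidase Entpd1 at 479 and 19.9 CPM. Krt8 stood at 2540 and 621 CPM. Of the score's genes Plac1 and Ldoc1 were higher, at 677 and 347 CPM and at 216 and 111 CPM. Ascl2, Gjb5 and Gab2 were lower, at 35.0 and 166, 40.9 and 196, and 75.9 and 339 CPM. Only 1 of the 11 was in the top 100 members, where Ascl2 and Gab2 stood highest. Ranks were not matched between the 11 and the 289, so the gaps in the score's genes follow in part from rank. Vgll1 and Pparg had 0 UMIs in the 11, against 85 and 82 in the 289. Among genes of cycling cells, Mki67 and Top2a had folds of 0.952 (0.720 to 1.24) and 0.849 (0.688 to 1.04), which include 1. So did the cyclins Ccnb1, at 1.06 (0.723 to 1.50), and Ccne1, at 0.764 (0.463 to 1.19). Cenpf had a fold of 0.679 (0.478 to 0.937). The 11 were picked on Prl3d RNA after the data were seen, so these values describe them.

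Accessibility, which did not pick the 11, placed them among the members. On average 87.0% of their 30 neighbours were members, above 50% for 10 of the 11, and 3.09 of the 30 were others of the 11. Over only 184481 peak counts, the promoters of Pecam1, Thbd and Adm were more accessible than in the 289, with folds of 8.56 (2.47 to 24.2), 6.52 (1.92 to 17.8) and 6.35 (2.14 to 15.8) on 10, 9 and 11 counts. The Hand1 promoter had a fold of 2.14 (0.904 to 4.37), which includes 1, as did those of Cdh5 at 1.66 (0.0398 to 10.6), Mmp9 at 2.36 (0.0557 to 15.5) and Itgb3 at 1.22 (0.143 to 4.63). The Phlda2 and Vgll1 promoters had 0 counts in the 11, against 170 and 52 among the 5214190 peak counts of the 289, and no fold is given for them at this depth. Of 24 giant cell genes 10 had enough UMIs, of which 7 were higher in all members and 1, Lepr, lower, beside 3.92% and 15% over all genes. The list was 3.17-fold higher in all members (641 and 202 CPM) and 1.25-fold higher without the 11. The Prl3d genes are in that list, with 1016 of its 2463 member UMIs, so this fall follows in part from how the 11 were picked. None of the 8 measured promoters of the list passed a fold of 2 upward and 1 passed it downward, near the 2.6% and 12.7% over all promoters. Their median fold was 0.870 and their summed fold 1.02 (0.928 to 1.12). Prl2c2, a proliferin, rested on 1 nucleus for 13 of its 14 member UMIs, and the late giant cell cathepsins Ctsq, Ctsj, Ctsm, Cts7 and Cts8 had 0 UMIs. Outside the members, 3 nuclei had at least 10 Prl3d UMIs, with 290, 129 and 12 at ranks 304, 431 and 3627, so the score cutoff passed through this group.

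The extraembryonic ectoderm, from which the cone grows, was represented by the 300 other nuclei with the highest mean of Esrrb, Elf5, Sox21, Duox2 and Wnt7b. Both sets were chosen on RNA, so RNA differences between them are described only. Over 6991 genes with enough UMIs, 3.89% were higher in the members by a fold of 2 and 4.02% lower, and over 11384 promoters 0.439% and 0.835%. The ectoderm-high nuclei were deeper, at medians of 14407 UMIs and 18988 peak counts, and on average 0.889% of their accessibility neighbours were members. Their extraembryonic ectoderm list, which holds Elf5 and Wnt7b and so in part restates the choice, summed to 3676 CPM against 1664 in the members, with 13 of 17 lower in the members and 1, Usp9x, higher. General trophoblast genes summed to 1838 CPM against 3114, with 8 of 13 higher in the members and Gata3, Tead4 and Grhl2 lower, at 0.459, 0.271 and 0.434. Lists of other tissues differed too. Streak and mesoderm genes summed to 153 CPM against 500 in the members, and visceral endoderm genes to 908 against 1953. Epiblast genes went the other way, at 1331 against 860 CPM, as did extraembryonic mesoderm genes, at 274 against 115. The members' visceral endoderm sum rested largely on the lowest bin, at 977, 1277 and 3983 CPM over the top, middle and lowest bins. Their streak and mesoderm sum rose likewise, at 293, 454 and 822 CPM. For these 2 lists the medians over nuclei of members and ectoderm-high nuclei were closer than the sums.

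The 8 positive genes differed in how far the ectoderm-high nuclei shared them. Gjb5 stood at 189 CPM in members and 65.7 CPM in ectoderm-high nuclei, and its promoter at 18.2 and 17.1 peak CPM, a fold of 1.06 (0.706 to 1.59). Plac1 stood at 361 and 3.29 CPM, with promoters at 10.9 and 2.62 peak CPM, a fold of 4.17 (1.88 to 10.5). Gab2 stood at 328 and 4.60 CPM, with promoters at 41.7 and 18.4, a fold of 2.27. Vgll1 had promoter levels of 9.63 and 3.15. Irx2, Ldoc1 and Ascl2 lay between, at 21.0, 10.5 and 7.89 CPM in ectoderm-high nuclei, above the 5.50, 4.50 and 3.97 CPM of the others and below the members. Krt7 was higher in members, with a promoter fold of 5.42 (3.02 to 10.4) and an RNA fold of 21.9, as was Nrk, an X-linked kinase of spongiotrophoblast, at 272 and 19.3 CPM with a promoter fold of 3.21. Elf5 and Plet1 had RNA folds of 0.258 and 1.09 and promoter folds of 0.690 and 0.534. The distal Irx2 peak held 3 counts in ectoderm-high nuclei and 123 in members, and the distal Gjb5 peak 46 and 246.

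Parietal endoderm, the other tissue at the outer surface of the conceptus, was represented by the 300 other nuclei with the highest mean of Lamb1, Col4a1, Col4a2, Sparc and Pth1r. The 12 parietal endoderm list genes, which include those 5 and so follow from the choice, summed to 7787 CPM there and 571 CPM in the members, and the 8 positive genes to 50.2 and 1302 CPM. For each of the 7 genes with a promoter peak the promoters were nearer to the members' level, as a ratio, than the RNA was. The RNA gap was set by the rule, which chose the members for high RNA of these genes, so that order is a description only. The nearest promoters were those of Irx2, Plac1 and Gab2, and the farthest that of Vgll1, at 0.547 and 9.63 peak CPM beside RNA at 0 and 22.1 CPM. Plac1 had promoters at 7.47 peak CPM there and 10.9 in the members beside RNA at 10.5 and 361 CPM, and the peak 2541 bp from its start held 33 and 65 counts. Gab2 had promoters at 27.7 and 41.7 peak CPM beside RNA at 25.9 and 328 CPM, and Irx2 at 45.0 and 56.9 peak CPM beside 3.80 and 104 CPM. The further ectoplacental cone list summed to 2524 CPM in parietal endoderm-high nuclei and 3474 in the members, so its sum alone did not mark trophoblast. Of 35677 peaks with at least 60 counts over both sets, 15.9% were more accessible in the members and 23.0% less by a fold of 2; against the ectoderm-high nuclei the shares were 7.47% and 18.6% of 36651.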

How the data were processed

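Nuclear RNA and chromatin accessibility were measured in the same nuclei of 1 pool of E7.0 mouse embryos, 1 library each. The authors deposited whole-number counts, not normalized, of UMIs per gene (32285 genes) and of transposase cuts per peak (229480 peaks). Per the file headers and the submitters' processing notes they came from Cell Ranger ARC 2.0.0 on the build mm10, and use of strand in counting was not given in the sources used here. No column of other samples was present (0). The libraries held 3842980 UMIs and 5398671 peak counts in the members and 140458103 and 231254556 in the others. Of the nonzero peak counts 86.4% were even, so intervals on accessibility used fragments estimated as the count divided by 2 and rounded up.

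The members were scored from the deposited counts as stated in the text. Summed CPM were compared as folds with exact conditional binomial 95% intervals, over genes and peaks with at least 200 counts in both groups together. A promoter held the 1000 bp before and 100 bp after a start in the files for the 20294 genes with a known strand. For genes without one it held 1000 bp on each side. Neighbours came from TF-IDF weights of peaks seen in at least 50 nuclei and 30 singular vectors. Doublets were called with Scrublet in scanpy 1.11.5 at a rate of 0.1 and were kept. Other tools were numpy 2.4.6, scipy 1.17.1, scikit-learn 1.9.0 and Python 3.11.15. The fold and interval code was tested on simulated data. Genes of the 21 lists may be named, and some of them are not reported here. Outside them the rule names the 20 highest folds (at least 100 UMIs in members, a UMI in at least 10% of members, no nucleus with over 10% of the UMIs) and the 10 lowest (at least 50 CPM in others). Peaks named are the highest folds with at least 60 counts in members and those within 50000 bp of the 8 genes. Members, lists and rules were chosen with earlier results of these data known. The genes of the giant cell comparison, the 22 nuclei among member neighbours and the promoters printed were chosen after their values were seen. A search for motifs inside distal peaks was not run, and no genome sequence beyond the RefSeq promoter windows was used here. RefSeq promoters (GRCm38.p6) covered 32851 windows.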

Additional observations from a re-analysis of the deposited data

Results flagged for a closer look

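The depth limit left out 484 barcodes with over 30000 UMIs and enough peak counts. In them Ascl2 stood at 14.42 CPM (3.97 in the others), Gjb5 at 34.45 CPM (14.97), Plac1 at 36.51 CPM (10.7) and Tfap2c at 72.17 CPM (28.7). The others lack the members, which the rule chose for high RNA of Ascl2, Gjb5 and Plac1, whereas the 484 barcodes were not sorted by score. These gaps therefore follow in part from that choice, and levels against all nuclei in range were not compared. Levels of the remaining score genes were not compared in the 484 barcodes. Of these barcodes 23 (4.75%) scored at or above the last member, with a highest score of 1.54, where the members were 2.59% of the barcodes in range. Their median depth was 35734 UMIs, and 271 of them (56.0%) were called doublets, so a nucleus and a pair of nuclei could not be told apart there.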

How the results depend on the processing

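Repeats were made for the counts of called genes and peaks, the neighbour share, the promoter sum and RNA folds of the 8 genes, and 3 gene lists. The promoter sum, the RNA folds and the lists all stayed above a fold of 1. No change of direction was defined for the counts or the neighbour share. The other comparisons were not repeated. Of the repeats of the main values 58 stayed within the intervals (counts of genes or peaks, within 1.5 times their main value) and 29 moved, as follows. The counts within that limit still ranged from 1499 to 2969 lower genes, from 10449 to 19053 more accessible and from 37524 to 74910 less accessible peaks. With 200 members the promoter fold of the 8 genes was 2.13, the neighbour share 70.8%, and the folds of the further ectoplacental cone, giant cell and extraembryonic ectoderm lists 3.62, 3.81 and 1.01. With 400 members the promoter fold was 1.67, the neighbour share 47.1% and the cone list 2.70. Scored on the positive genes alone (253 members shared), the lists were at 3.03, 2.97 and 1.20. Doublet removal gave 3.95 for the giant cell list. Limits of 2000 to 50000 UMIs, changed together with a limit of 1000 peak counts, gave a neighbour share of 62.8% and lists at 3.39, 3.32 and 1.03, and no upper limit gave 3.35 for the cone list and 1.02 for the ectoderm list. A score on UMIs thinned to 3000 (203 members shared) gave 42.3% and lists at 2.85, 2.34 and 1.14. The mean of CPM per nucleus gave 2.92 for the giant cell list. With no minimum count 2186 genes were higher and 10636 lower. Alternatives added after seeing the data were the giant cell list without the 11 Prl3d nuclei (1.25), folds divided by their median (24289 peaks more accessible, not 12807), and peaks expected to hold 60 counts in members. That last limit left 18955 peaks, of which 193 (1.02%) were more and 2053 (10.8%) less accessible, against 12807 and 54583 of 175475. At the minimum of 200 counts a peak is expected to hold 4.56 counts in members, so single calls among weak peaks are imprecise. The causes of these shifts were not tested. No paired analysis was possible because each assay had 1 library.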

Other observations

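Genes of blood vessels, invasion and clotting were measured as a list beside the trophoblast lists. Of 24 with enough UMIs 7 were higher in the members and 4 lower, where 3.92% and 15% of all measured genes were. Their median fold was 0.933, and all 31 genes summed to 865 CPM in members and 809 in others, and to 725, 1126 and 750 CPM over the member bins. Some of these genes rested on the 11 members with at least 3 Prl3d UMIs, 9 of which lay in the middle bin: they held 87 of 113 member UMIs of Cdh5, 57 of 69 of Pecam1, 45 of 53 of Mmp9 and all 35 of Thbd. The endothelial protein C receptor Procr stood at 12.0 CPM in members and 2.61 in others. The laminin receptor chain Itga7 stood at 24.98 and 9.81 CPM, while Itga1 stood at 4.42 and 28.4 CPM with a promoter fold of 0.521 (0.340 to 0.765). The integrin Itgb3, sparse at 113 UMIs, was seen in 21.0% of members and 0.646% of others, at 56.5, 23.6 and 0.89 CPM over the member bins. Its promoter was nearly as open in the others, at a fold of 1.14 (0.843 to 1.50). The placental growth factor gene Pgf had 7 UMIs and a promoter fold of 1.94 (1.49 to 2.48).

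Peaks more accessible in members by a fold of 2, 7.30% of all measured peaks, were counted by nearest gene. Dst, a linker of the cytoskeleton, was the nearest gene of 15 such peaks among 53 measured, with an RNA fold of 0.940. Trio, a guanine exchange factor, had 13 of 56 (RNA fold 1.09), Fam120a 12 of 25 (1.34), Prex1 12 of 57 (1.52) and Pvt1 11 of 54 (1.15). Over the 10 genes with at least 10 such peaks, RNA folds ran from 0.700 for Abca4 to 1.72 for Tnrc18. How many peaks long genes collect by their length alone was not tested.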
